A study of Mus musculus with 26 samples.

Results

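The genes described here encode the protein components of the cytosolic ribosome. They were chosen by symbol: every probe whose gene symbol begins with Rpl or Rps followed by a number, begins with Rplp, or is Rpsa. Left out were the kinases with Rps6k symbols, which are no part of the ribosome. This gave 59 genes on 59 probes, of 8841 gene symbols and 10500 probes in all. By role they were 32 proteins of the large subunit, 19 of the small subunit, the 3 proteins of the stalk (Rplp0, Rplp1 and Rplp2) and 5 paralogs of other ribosomal protein genes (Rpl3l, Rpl22l1, Rps27l, Rpl36al and Rpl39l). All 59 passed the filter on dim probes.

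The study profiled RNA from 5 exocrine glands of BALB/c mice of both sexes on 1-colour expression arrays: submandibular, sublingual and parotid glands, which make saliva, lacrimal glands, which make tears, and meibomian glands, which make the lipid layer of the tear film. The 10 groups were the males and the females of each gland. Each of the 26 arrays held a separate pool of 5 animals (10 glands), with 3 pools per sex of submandibular, lacrimal and meibomian glands and 2 pools per sex of sublingual and parotid glands. No group carried a treatment or an engineered allele, and the age of the mice and the array platform are not given in the sources used here. Because pools rather than single mice were measured, the spread between arrays is that between pools of 5 animals.

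Each ribosome needs 1 copy of nearly every one of these proteins, and their mRNAs are among the most abundant of any cell. Most of these mRNAs begin with a C followed by an unbroken run of pyrimidines, the 5′ terminal oligopyrimidine (TOP) motif, through which mTOR signalling sets how actively they are translated. That control acts on translation, whereas the arrays measure the amount of mRNA. The stalk proteins recruit elongation factors, Rpsa is also known as a laminin receptor, and Rps6 is the substrate of the S6 kinases. Among the paralogs, Rpl3l is the striated muscle form of Rpl3 and Rpl39l is known from testis.

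The start site of a gene shows whether its mRNA can carry the TOP motif, so windows of 30 bases centred on the annotated start are given for members on which the results turn. They are RefSeq sequences of build GRCm38.p6 on the gene's strand, 5′ to 3′, and capitals mark the longest run that begins with a C within 5 bases of the start and goes on with at least 4 further C or T bases. Bases before that C are not marked.
Rpl28, chr7:4792950-4792979, plus strand: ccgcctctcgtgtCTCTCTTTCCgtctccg
Rps6, chr4:86857353-86857382, minus strand: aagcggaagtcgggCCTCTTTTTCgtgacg
Rplp2, chr7:141447636-141447665, plus strand: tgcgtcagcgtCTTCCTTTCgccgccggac
Rps27l, chr9:66946071-66946100, plus strand: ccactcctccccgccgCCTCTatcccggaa
Rpl22l1, chr3:28805493-28805522, plus strand: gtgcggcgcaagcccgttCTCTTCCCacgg
Rpl36al, chr12:69184053-69184082, minus strand: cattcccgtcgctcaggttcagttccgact
Rpl39l, chr16:10170213-10170242, plus strand: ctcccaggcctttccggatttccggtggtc
Rpl3l, chr17:24727811-24727840, plus strand: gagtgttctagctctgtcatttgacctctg

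Such a run was found at a start of 22 of the 49 members with an entry (44.9%), against 5718 of 27025 genes in the whole table (21.2%). Read on the opposite strand, the same search found a run for 6 members (12.2%) and for 6582 genes of the table (24.4%). Rpl28, Rps6 and Rplp2, which belong to the core ribosome, carried runs that span the start. Other core members had none, among them Rplp0, Rpsa, Rpl23, Rpl26 and Rpl13, whose windows are not shown. Of the paralogs, Rps27l and Rpl22l1 carried a run, and Rpl36al, Rpl39l and Rpl3l had none that begins within 5 bases of the start. The Rpl39l window does hold cctttcc directly before the start, which begins too far from it to be counted. Of the 49, 6 have several annotated starts, any of which counted. The windows of Rps27l and Rpl3l are the first of 2, and the second start of either gene held no run. A match is a description of the letters, and the annotated start may differ from the start used in these glands. The members without an entry were Rpl29, Rpl30, Rps29, Rpl7, Rpl8, Rpl3, Rpl36, Rplp1, Rpl21 and Rps20.

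Values are scaled intensities as deposited, on which the median probe of an array lay between 0.928 and 0.955. The arrays shared this middle but not their top: the brightest probe reached 498 to 868 on lacrimal arrays, 280 to 510 on submandibular, 181 to 423 on sublingual, 158 to 624.9 on parotid, and only 103 to 188 on meibomian arrays. The counts called in each gland comparison are therefore given both as deposited and after quantile scaling, which gives every array the same distribution. A value with no scaling named is as deposited. Among gland markers, the summed lacrimal genes were 770 to 1237 on lacrimal arrays against 3.27 to 313 on the others, and the summed meibomian genes were 148 to 205 on meibomian arrays against 7.66 to 54.9. Submandibular markers summed to 375 to 867 in their own gland and reached 371 elsewhere. The 2 parotid markers summed to 306 to 1064 in parotid glands but were in the same range in all glands except the meibomian, and the single sublingual marker did not set the sublingual gland apart (0.226 to 0.729). The arrays were also split into sets of 10 and 16 by the sign of their main shared deviation from the group means, across the genes outside the ribosome. By construction every group gives pools to both sets. Pool A of the sublingual, parotid and meibomian glands and pool B of the submandibular and lacrimal glands were in the smaller set.

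Ribosomal protein mRNAs were near the top of every array. Between 50 and 54 of the 59 members stood in the brightest 5% of probes of an array, and their median stood at percentile 98.4 to 99.3. The brightest 54 members never fell below 5 on the deposited scale. The 5 dim ones were Rpl3l, Rps20, Rplp1, Rpl22l1 and Rpl39l, which stayed below 10 everywhere. Rps20, a core protein of the small subunit, was below the 30th percentile of its array on 17 arrays and Rpl3l on 16, and Rpl22l1 had no value on 10 arrays. Levels of different probes are not set against each other here, since a probe's brightness depends on its sequence.

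The median member, as deposited, lay at 111 to 234 on lacrimal arrays, with a middle value of 141. It lay at 88.0 to 122 on meibomian, 82.0 to 138 on submandibular, 72.5 to 126 on parotid and 76.7 to 130 on sublingual arrays. Lacrimal glands thus held the highest values, although their lower arrays overlapped every other gland. After quantile scaling the median member was 147 to 165 on the 6 meibomian arrays and 90.2 to 139 on the other 20, with no overlap, and lacrimal arrays, at 90.2 to 132, overlapped the salivary ones, at 90.7 to 139. Within sublingual and parotid glands the median member followed the pool: as deposited it was 76.7 and 130 in male sublingual pools A and B and 89.6 and 110 in the female pools, and 72.5 and 126 in male parotid pools A and B against 90.7 and 125 in the female pools. The maxima of the same arrays differed likewise, at 158 and 194 in the male and female parotid pools A and 624.9 and 565 in pools B. Within groups, the members' typical SD between pools was 0.573 (log2) in parotid and 0.520 in sublingual glands as deposited, and 0.192 and 0.231 after quantile scaling.

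**Figure D1:**
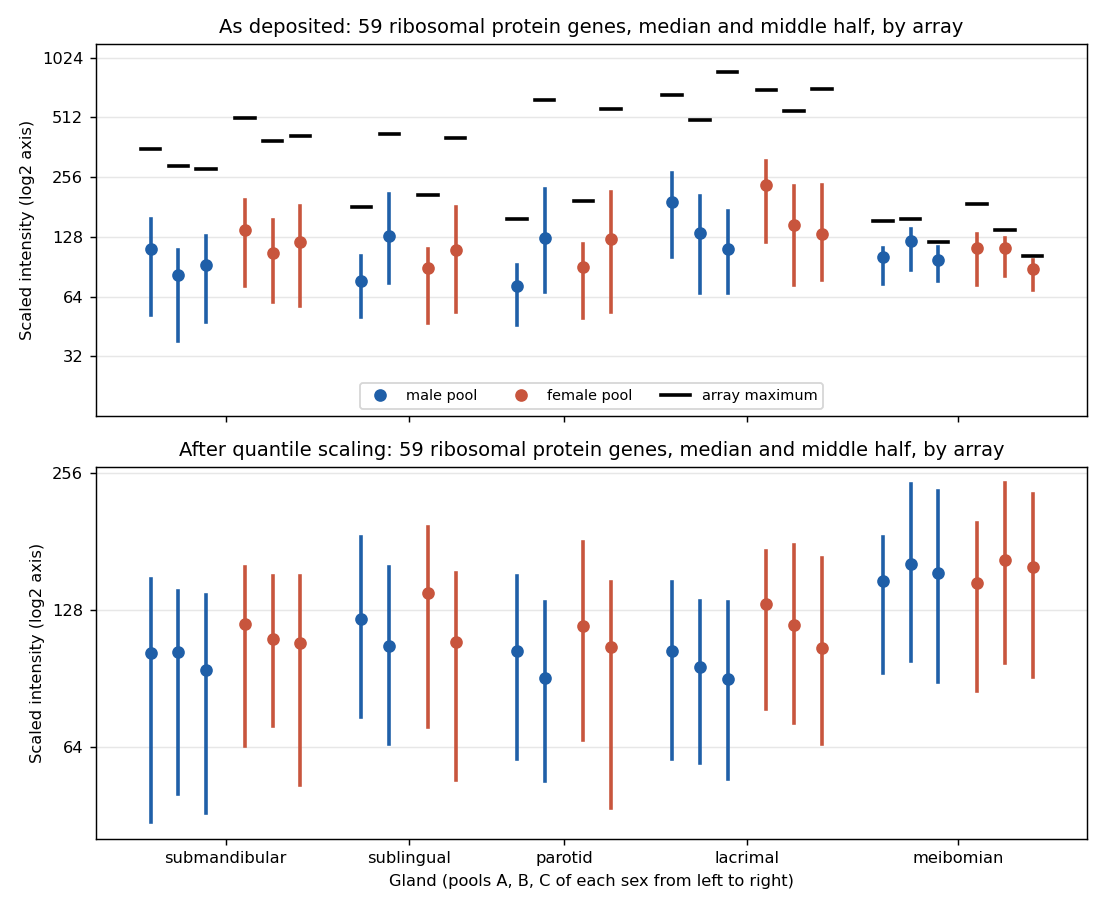
Scaled intensity of the 59 ribosomal protein genes on each of the 26 arrays (log2 axis), as deposited (top) and after quantile scaling (bottom). Points are the median over the genes, lines the middle part of the genes from the 25th to the 75th percentile, blue for male and red for female pools, and black bars the brightest probe of the array. Meibomian arrays have maxima of 103 to 188 just above the genes, and after quantile scaling their medians of 147 to 165 lie above those of all other arrays.

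To ask in which gland ribosomal protein mRNA differed, each gland was set against the mean of the other 4, with both sexes weighted equally, in limma with Benjamini-Hochberg adjustment over all 8190 probes tested and a threshold of 0.05. In the lacrimal gland 45 of the 59 members were higher and none was lower, with a median log2 difference of 0.66. Of all probes 48.4% were called there, 28.9% higher, and the median of all probes was 0.12, which puts the members 0.54 above it. The higher members were 25 of 32 large-subunit, 14 of 19 small-subunit, 2 of 3 stalk and 4 of 5 paralog genes. After quantile scaling the same comparison called 3 members higher and 8 lower, with a median of -0.10 (all probes -0.06, 50.4% called, 22.9% higher and 27.4% lower). In 39 of the 59 members the sign of the difference changed with the scaling. In bulk tissue, fewer cells of a type and less RNA per cell cannot be told apart, and the same holds for more.

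The meibomian gland showed the reverse. As deposited, 15 members were higher and 17 lower than in the other glands, with a median of -0.16, in a comparison that called 67.4% of all probes (31.4% higher, 35.9% lower). After quantile scaling 48 were higher and 2 lower, with a median of 0.65, where 64.8% of all probes were called, 32.3% higher and 32.5% lower. These 48 were 28 of 32 large-subunit and 17 of 19 small-subunit proteins, 1 stalk protein (Rplp2) and 2 paralogs. Called in opposite directions by the scalings were 10 members, all lower as deposited and higher after quantile scaling: Rpl6, Rpl12, Rpl13, Rpl15, Rpl19, Rpl23, Rpl36a, Rpl37, Rpl37a and Rps23. With the replicate block the as-deposited calls of Rpl12 (adjusted p = 0.05321) and Rpl19 (adjusted p = 0.08438) were lost.

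The members were also grouped by how near they stood to the top of the meibomian arrays. Since these groups rest on the meibomian values themselves, their differences are a description and no test. On meibomian arrays 7 to 38 members stood at or above 80% of the brightest probe, whereas outside this gland only the pool A arrays of parotid gland held any (1 member in the male and 2 in the female pool). The 5 members in that zone on all 6 meibomian arrays (Rpl6, Rpl15, Rpl23, Rpl36a and Rpl37a) were all lower as deposited, with a median of -0.79, and all higher after quantile scaling. The 34 members in it on some arrays were higher in 3 cases and lower in 10 as deposited, and higher in 29 after quantile scaling. The 20 members that never reached it were higher in 12 cases and lower in 2 as deposited (median 0.56) and higher in 14 and lower in 2 after quantile scaling (median 0.70). The 2 lower ones were Rps27l (-1.11 as deposited) and Rpl36al (-0.83). Rpl23, a large-subunit protein, illustrates the first kind: its values had a low of 101, a median of 133 and a high of 158 on meibomian arrays, against gland medians of 178.6 to 308 in the other glands.

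In the lacrimal gland, the 20 members that never neared the meibomian maximum were higher in 13 cases and lower in none as deposited, with a median of 0.59, and after quantile scaling higher in 3 and lower in 2, with a median of 0.15. The other 39 were higher in 32 cases as deposited and in none after quantile scaling, where 6 were lower. As a further check, chosen after seeing the data, all values above the lowest of the 26 array maxima, 103, were set to that value on every array. By construction this removes any difference between values above 103. Under this common ceiling 12 members were higher in the lacrimal gland, 9 of them among the 20, where 47.5% of all probes were called, 27.9% higher and 19.5% lower, and the median was 0.11 for the members and 0.11 for all probes. In the meibomian gland 15 were higher and 1 lower (67.1% of all probes called, 31.6% higher and 35.5% lower), with a median of 0.05 (all probes -0.06). The part that array brightness has in these differences was not tested further.

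**Figure D2:**
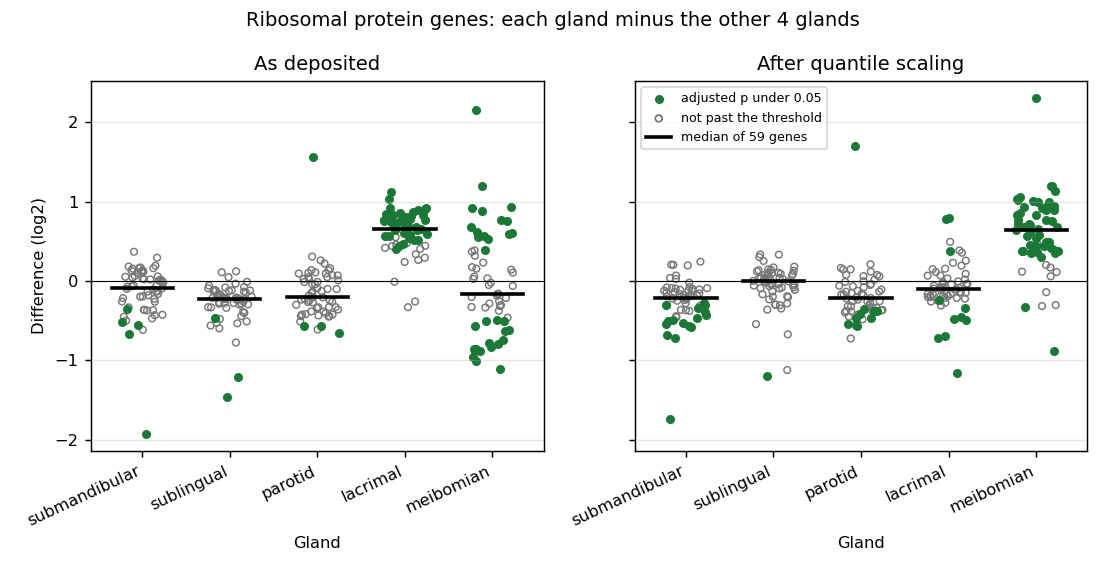
Log2 difference of each ribosomal protein gene between a gland and the mean of the other 4 glands, as deposited (left) and after quantile scaling (right). Filled points passed an adjusted p of 0.05 in limma, open points did not, and black bars are medians. The median moves to -0.10 after quantile scaling, against 0.66 as deposited, in the lacrimal gland, and to 0.65 against -0.16 in the meibomian gland, while the salivary glands keep medians of -0.23 to 0.

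Few members were called in the salivary glands as deposited. The members' typical SD between pools was widest in 2 of these glands, at 0.520 in sublingual and 0.573 in parotid glands (log2). As deposited, 5 members were lower and none higher in the submandibular gland, where 29.9% of all probes were called (13.9% higher, 16% lower). In the sublingual gland 3 were lower and none higher (21.7% of all probes called, 10.4% higher and 11.3% lower), and in the parotid gland 1 was higher and 3 were lower (35.9% called, 15.1% higher and 20.8% lower). The medians were -0.09, -0.23 and -0.21. With the pools paired by letter as a replicate block, the counts called were 3, 1 and 2 (18.4%, 12% and 23.5% of all probes). After quantile scaling 17 members were lower in the submandibular gland (29.7% of all probes called, 14.8% higher and 14.9% lower). In the sublingual gland 1 was then lower (21.9%, 12% higher and 9.96% lower), and in the parotid gland 1 was higher and 9 were lower (35.9%, 15.7% higher and 20.2% lower). The lower members as deposited were Rpl3l, Rpsa, Rpl13a, Rpl28 and Rpl27a in the submandibular gland, where Rpl13a (-0.55) and Rpl27a (-0.36) lost their calls with the block (adjusted p = 0.07446 and 0.1684). In the sublingual gland they were Rpl3l, Rpl39l and Rpl8 (-0.47, adjusted p = 0.1535 with the block). In the parotid gland Rpl3l was the higher member, and Rps20 (dim on all 4 parotid arrays; adjusted p = 0.2154 with the block), Rpl28 and Rpl27a were the lower ones. Within the smaller array set the median difference was -0.41 in the sublingual and -0.38 in the parotid gland, and within the larger set 0.00 and 0.03. In the lacrimal gland it was 0.75 and 0.52, positive for 55 of the 58 members that could be computed in each set. In the meibomian gland it was 0.11 in the smaller set, with 37 of 58 positive, and -0.25 in the larger, with 22 of 58 positive.

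No member's arrays stood wholly apart from those of the other 4 glands in any gland as deposited. Of all probes 19.8% did so in the meibomian gland, 4.29% in lacrimal, 5.79% in parotid, 1.39% in sublingual and 1.4% in submandibular glands. After quantile scaling 11 members stood wholly above in the meibomian gland, where 19.4% of all probes stood apart: Rpl7a, Rpl8, Rpl21, Rpl23, Rpl27, Rpl28, Rpl37, Rps4x, Rps19, Rps20 and Rpsa. Rpl39l stood wholly below in the sublingual gland (1.66% of all probes). The F test over the 5 glands called 46 members (80.6% of all probes) as deposited and 48 (78.5%) after quantile scaling. It was smallest for Rpl28 (adjusted p = 7.732e-06), followed by Rpl3l, Rpl13a and Rpsa, and largest for Rpl29 (adjusted p = 0.8619) and Rps15 (adjusted p = 0.4384).

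Rpl28, a protein of the large subunit, had the smallest F-test p over the glands but not the widest span. Its gland means spanned 1.16 on the log2 scale, against 1.78 for Rps27l. Values of Rpl28 had a low of 58.9, a median of 68.5 and a high of 77.1 on meibomian arrays, and 42.2, 58.2 and 78.8 on lacrimal arrays. On submandibular arrays the low was 25.7, the median 31.2 and the high 39.9. Sublingual values were 31.0 and 35.4 in male and 29.6 and 39.4 in female pools A and B, and parotid values 23.2 and 42.8 in male and 24.5 and 35.2 in female pools. All meibomian arrays and 5 of the 6 lacrimal arrays thus lay above every salivary array, and the lowest lacrimal array lay below 1 of them, male parotid pool B. In the meibomian gland the log2 difference was 0.88 ± 0.14 (SE; limma adjusted p = 1.547e-05) as deposited and 1.14 after quantile scaling. Rpl28 was lower in the submandibular gland by a log2 difference of -0.51 and in the parotid gland by -0.57, under both scalings; the parotid call was lost without male pool A (-0.35, adjusted p = 0.1606) or female pool A (-0.44, adjusted p = 0.1032).

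Of the meibomian calls, 14 higher and 2 lower ones were shared by both scalings. The higher ones were Rpl3l, Rpl26, Rps20, Rpl39l, Rpl28, Rpl13a, Rpl8, Rpl27, Rpsa, Rpl27a, Rps24, Rps7, Rps13 and Rpl21. With the replicate block the as-deposited calls of Rps7 (adjusted p = 0.0751) and Rpl21 (adjusted p = 0.07945) were lost. Rpl26, a large-subunit protein that in human cells also binds p53 mRNA, differed by 1.19 ± 0.24 (limma adjusted p = 0.0002181), with a low of 19.1 and a high of 38.2 on meibomian arrays. The other glands reached 13.6 in parotid, 11.3 in sublingual, 18.4 in submandibular and 38.5 in lacrimal glands. Only the lacrimal arrays, which spread over 5.79 to 38.5, overlapped the meibomian ones. Rps20 was dim: it gave 0.402 to 0.466 on meibomian arrays against 0.175 to 0.487 on lacrimal ones, and was at least 1.36-fold higher in meibomian than in submandibular and at least 1.27-fold higher than in parotid glands, where it was below the 30th percentile of every array. Rpsa had a low of 80.5, a median of 83.5 and a high of 94.0 on meibomian arrays, and medians of 79.3 in lacrimal, 56.0 in parotid, 49.7 in sublingual and 43.4 in submandibular glands. Its difference was 0.62 ± 0.14 in the meibomian and -0.67 in the submandibular gland, both called under both scalings, whereas in the lacrimal gland 0.47 (adjusted p = 0.008645, and 0.05404 with the replicate block) became -0.08 after quantile scaling.

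Both lower meibomian members were paralogs. Rps27l, a paralog of Rps27 induced by p53 in human cells, had a low of 25.99, a median of 60.5 and a high of 86.6 on meibomian arrays. Lacrimal arrays had 88.4, 198 and 265, and submandibular arrays 70.5, 109.6 and 139.7. Sublingual values were 59.5 and 104 in male and 63.5 and 96.4 in female pools A and B, and parotid values 71.5 and 116 in male and 92.4 and 139.8 in female pools. Every meibomian array was below every lacrimal array, while the salivary arrays overlapped the meibomian ones. The meibomian difference was -1.11 ± 0.26 (limma adjusted p = 0.000738) as deposited and -0.89 (adjusted p = 0.0008284) after quantile scaling. Rps27l also had the highest as-deposited lacrimal difference of all members, 1.12, which was 0.49 after quantile scaling (adjusted p = 0.05048). Rpl36al, a paralog of Rpl36a, had values of 70.3 to 105 on meibomian arrays and 157.5 to 326 on lacrimal arrays, and its meibomian difference was -0.83 ± 0.22 (adjusted p = 0.002698) and -0.33 after quantile scaling (adjusted p = 0.01277).

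The stalk proteins did not move as one. Rplp0, the base of the stalk, had a low of 77.2, a median of 98.9 and a high of 155 on meibomian arrays, against 211, 330 and 383 on lacrimal arrays and 174, 220 and 336 on submandibular arrays. It was lower in the meibomian gland by -1.01 ± 0.24 (adjusted p = 0.000847) and higher in the lacrimal gland by 0.83 ± 0.24 (adjusted p = 0.006798) as deposited. After quantile scaling the values were -0.30 (adjusted p = 0.1632) and -0.04. Rplp2 differed by 0.64 in the lacrimal and by -0.21 in the meibomian gland as deposited, and by -0.22 and 0.65 (adjusted p = 0.0001321) after quantile scaling, so each scaling called it higher in a different gland. Rplp1 was dim, at 1.53 to 7.20 over all arrays. It passed the threshold in the meibomian gland as deposited (0.53, adjusted p = 0.04956) but neither with the replicate block (adjusted p = 0.1008) nor after quantile scaling (adjusted p = 0.08299).

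Rps6 followed the same pattern as Rplp2. Its values had a low of 126, a median of 223 and a high of 277 on lacrimal arrays, 86.0, 113 and 159 on meibomian arrays, and 92.2, 101 and 111 on submandibular arrays. As deposited it was higher in the lacrimal gland by 0.68 ± 0.23 (adjusted p = 0.01846) with a difference of -0.28 in the meibomian gland (adjusted p = 0.2774). The lacrimal call was lost without male or female pool A (adjusted p = 0.06373 and 0.07194). After quantile scaling these differences were -0.10 and 0.44 (adjusted p = 0.01427), and the submandibular difference, -0.50 as deposited (adjusted p = 0.109), was -0.57 (adjusted p = 0.006751). Rpl29, a heparin-binding protein of the large subunit, was the most even member as deposited, with a lacrimal difference of -0.01 and a meibomian one of 0.23. Its spread among lacrimal arrays was wide, from 29.8 to 207. After quantile scaling it was lower in the lacrimal gland (-0.72, adjusted p = 0.04659) and higher in the meibomian gland (0.94, adjusted p = 0.008027).

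Rpl3l, the paralog of striated muscle, was dim in most glands. It had a low of 0.868, a median of 0.907 and a high of 1.54 on meibomian arrays. Parotid values were 1.28 and 0.883 in male and 0.311 and 0.914 in female pools A and B. Lacrimal arrays gave 0.187 to 0.414 and sublingual arrays 0.107 to 0.200, all below the 30th percentile of their arrays (0.281 to 0.561 over the 26), and so were 5 of the 6 submandibular arrays, which gave 0.0234, the floor, to 0.366. All meibomian arrays were above all arrays of these 3 glands. With the dim arrays raised to their 30th percentile, Rpl3l was at least 3.14-fold higher in meibomian than in sublingual glands and at least 2.50-fold higher than in lacrimal glands. Since the dim glands allow only such bounds, the fitted differences are given by their calls alone. Rpl3l was called higher in the meibomian gland (limma adjusted p = 3.758e-05) and in the parotid gland (adjusted p = 0.007902, and 0.115 with the replicate block), and lower in the submandibular gland (adjusted p = 0.0004604). Its sublingual call (lower, adjusted p = 0.01871) was past the threshold neither with the replicate block (adjusted p = 0.2112) nor after quantile scaling (adjusted p = 0.071), nor without male or female sublingual pool A (adjusted p = 0.1099 and 0.1307). The parotid call was lost without male pool A (adjusted p = 0.05216) or female pool B (adjusted p = 0.08649).

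Between glands, genes of skeletal muscle ran alongside Rpl3l. The summed intensity of the 9 muscle probes, among them Acta1, Ckm and Myh2, was 199.99 to 346 on meibomian and 53.9 to 213 on parotid arrays, against 2.47 to 24.4 on submandibular, 2.63 to 5.51 on lacrimal and 1.93 to 4.004 on sublingual arrays. All 9 reached the 30th percentile on some array of the meibomian and parotid glands, and 1 or 2 reached it on no array of each of the other glands. Within the submandibular gland the muscle sum was 18.1 to 24.4 in male and 2.47 to 4.33 in female pools. Rpl3l, dim on 5 of these 6 arrays, gave 0.0856 to 0.165 in male and 0.0234 to 0.366 in female pools. The part of muscle tissue in the Rpl3l differences was not tested.

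Rpl39l and Rpl22l1, a paralog of Rpl22, were the members called higher in the lacrimal gland under both scalings besides Rpl13a, a large-subunit protein that also represses translation of inflammatory mRNAs in human cells. Rpl39l gave 1.68, 5.43 and 1.15 in male lacrimal pools A, B and C and 0.960, 1.01 and 0.826 in female pools. Its sublingual values were 0.401 and 0.505 in male and 0.412 and 0.604 in female pools, and on meibomian arrays it had a low of 1.26, a median of 1.63 and a high of 1.87. The sublingual arrays were thus the lowest, apart from an overlap with submandibular ones (0.592 to 0.967), and male lacrimal pool B stood far above the other arrays. The lacrimal difference was 0.77 ± 0.22 (adjusted p = 0.006296) and 0.44 without that pool, the meibomian one 0.93 ± 0.22, and the sublingual one -1.21 ± 0.26 (adjusted p = 0.001463, and 0.02503 with the replicate block). Rpl22l1, measured on 16 arrays, gave 1.48 and 3.60 in male lacrimal pools B and C and 2.06 and 2.68 in the female ones. The arrays of the other glands gave 1.002 to 1.74, so that only male lacrimal pool B lay within their range. In each sex its salivary values came only from submandibular pool C and from pool B of the sublingual and parotid glands. The spread between pools behind the SE and adjusted p of Rpl22l1 was thus measured in lacrimal and meibomian glands alone. Its lacrimal difference was 0.78 ± 0.26 (adjusted p = 0.0282, and 0.07699 with the replicate block), and the call was lost without male pool C (0.46, adjusted p = 0.1388) or female pool C (0.69, adjusted p = 0.09964). For Rpl13a the lacrimal difference was 0.77 ± 0.18 (adjusted p = 0.001123) and 0.37 after quantile scaling (adjusted p = 0.037, and 0.09244 with quantile scaling and the replicate block together).

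Across the 10 group means, the members varied together to different degrees. The median correlation between a pair of members was 0.615 as deposited and 0.722 after quantile scaling, over points that share arrays and their brightness. With the members' own median, 22 members correlated above 0.8, led by Rps10 at 0.98, whereas 6 were below 0.5 and Rpl3l (-0.14) and Rpl8 (-0.27) were below 0. After quantile scaling both were positive (0.48 and 0.49), and those below 0 were Rps27l (-0.75), Rplp0 (-0.35), Rpl22l1 (-0.34) and Rpl36al (-0.33). The patterns most like that of Rps27l belonged to Rpl7 (r = 0.991), Rpl15 (r = 0.989) and Rps23 (r = 0.988), all members with low meibomian values as deposited.

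**Figure D3:**
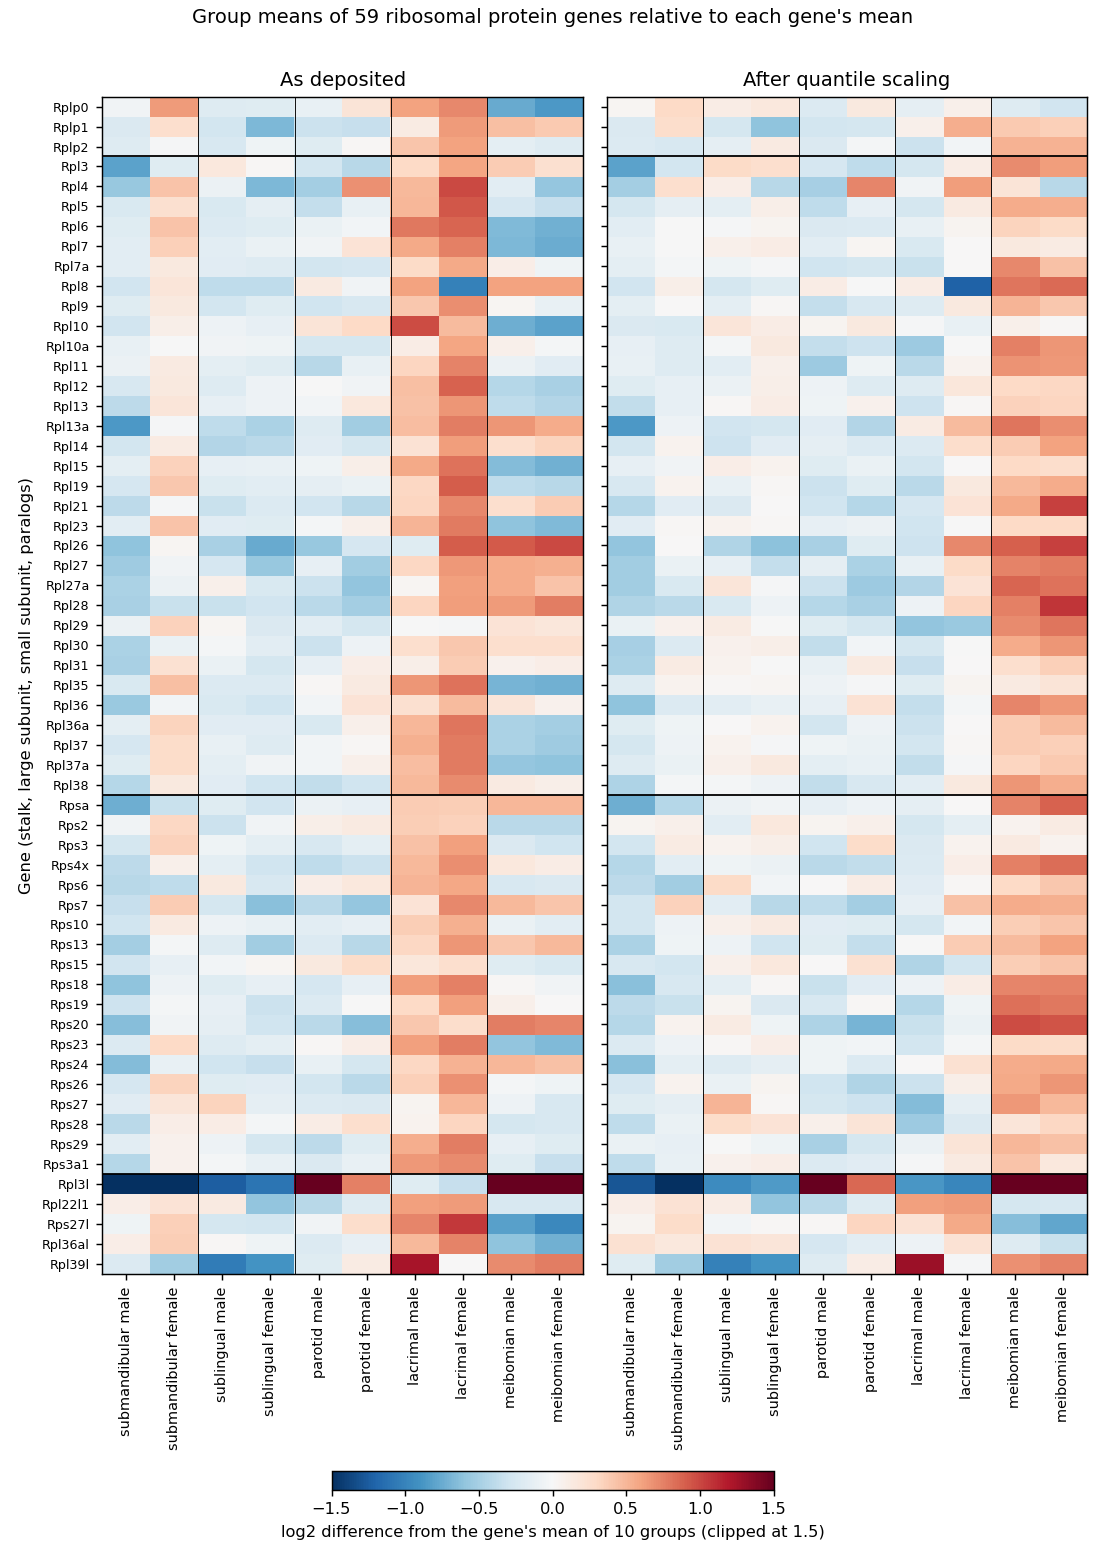
Mean log2 intensity of each ribosomal protein gene in the 10 groups of gland and sex, relative to the gene's own mean, as deposited (left) and after quantile scaling (right). Genes run from the stalk at the top through the large and small subunits to the 5 paralogs at the bottom, red is above and blue below the gene's mean, and colours are clipped at 1.5. The red block sits in the lacrimal columns on the left and in the meibomian columns on the right, and Rpl8 is low in female lacrimal glands in both.

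Other genes of translation were looked up by list, to be read against the shares of all probes called higher and lower: 28.9% and 19.5% in the lacrimal and 31.4% and 35.9% in the meibomian gland as deposited. After quantile scaling these shares were 22.9% and 27.4% in the lacrimal and 32.3% and 32.5% in the meibomian gland. Of 48 tested mitochondrial ribosomal proteins, 18 were higher and 4 lower in the lacrimal gland as deposited and 18 and 6 after quantile scaling. In the meibomian gland 17 were higher and 10 lower as deposited, and 17 and 13 after quantile scaling. In the parotid gland 15 of them were lower and none was higher as deposited (20.8% of all probes lower, 15.1% higher). After quantile scaling 16 were lower and 1 was higher there (20.2% of all probes lower, 15.7% higher). Of 34 ribosome biogenesis genes, 12 were higher and 3 lower in the lacrimal gland as deposited, and 11 and 4 after quantile scaling. In the meibomian gland 10 were higher and 8 lower as deposited, and 9 and 9 after quantile scaling. Fbl, which methylates rRNA, differed by 0.44 in the meibomian gland (adjusted p = 0.01583), and Ncl, a nucleolar protein, by 0.84 in the meibomian (adjusted p = 0.002572) and -1.89 in the lacrimal gland (adjusted p = 7.486e-07).

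Of 15 TOP mRNA genes outside the ribosome, 7 were higher and none was lower in the lacrimal gland as deposited, and 3 were higher and 1 lower after quantile scaling. In the meibomian gland 2 of them were higher and 4 lower as deposited, and 5 and 3 after quantile scaling. Eef1a1, the elongation factor that carries tRNA to the ribosome and a very bright probe, differed by 1.16 in the lacrimal gland and -1.33 in the meibomian gland as deposited, and by -0.02 and 0.03 after quantile scaling. Eif3f, a subunit of initiation factor eIF3, was higher in both glands under both scalings, by 2.09 and 1.11 as deposited. In the mTOR pathway, 4 of 16 probes were higher and 1 lower in the lacrimal gland under either scaling. In the meibomian gland 2 were higher and 5 lower as deposited, and 1 and 4 after quantile scaling. Among the kinases with Rps6k symbols, Rps6ka6 was higher (1.19, limma adjusted p = 1.252e-06) and Rps6kb2 lower (-0.56, adjusted p = 0.004571) in the meibomian gland. Fau, a ribosomal protein that the choice by symbol leaves out, was called in no gland.

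For the sexes, male and female pools of each gland were compared. The plainest difference was in Rpl8, a protein of the large subunit next to the peptidyl transferase centre. Male lacrimal pools A, B and C gave 95.5, 67.5 and 69.7, against 29.8, 23.7 and 22.2 in female pools. All 3 male values were above all female values, with a log2 difference of 1.61 ± 0.25 (limma adjusted p = 0.000188; higher in 3 of 3 lettered pairs). After quantile scaling it was 1.33 ± 0.21 (adjusted p = 0.0003248, the only member among 7.28% of all probes called), and as deposited it was between 1.45 and 1.74 when any 1 of the 26 pools was left out. It was the only member called in this comparison (5.43% of all probes called), and the call was lost where only the 6 lacrimal arrays entered the fit.

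In the other glands the geometric mean of Rpl8 was 41.3 in male and 57.2 in female submandibular, 38.9 and 39.0 in male and female sublingual, 55.4 and 48.6 in parotid and 76.9 and 76.7 in meibomian pools. The female lacrimal pools held 3 of the 4 lowest of the 26 values as deposited, with male sublingual pool A (29.5) among them, and the 3 lowest after quantile scaling (19.6 to 26.2, next 34.4). Rpl8 was also the only member for which the sex difference itself varied between glands (F test, adjusted p = 0.007815; 2.66% of all probes called, and 3.2% after quantile scaling), a call lost with array weights and in the larger array set alone. The summed intensity of 6 B cell probes was 41.7 to 81.7 in male and 12.6 to 35.1 in female lacrimal pools, and that of 4 adipocyte probes 4.56 to 15.6 and 12.4 to 28.1. The B cell markers disagreed. In the lacrimal gland Cd79a stood at 21.4 and Jchain at 7.59, but Ms4a1, Cd79b, Ighm and Pou2af1 only at 0.220 to 0.883. Ms4a1, Cd79b and Ighm were higher in the sublingual gland (5.36, 3.94 and 12.7), where Cd79a was at 6.58. The part of either cell type in the Rpl8 difference was not tested.

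**Figure D4:**
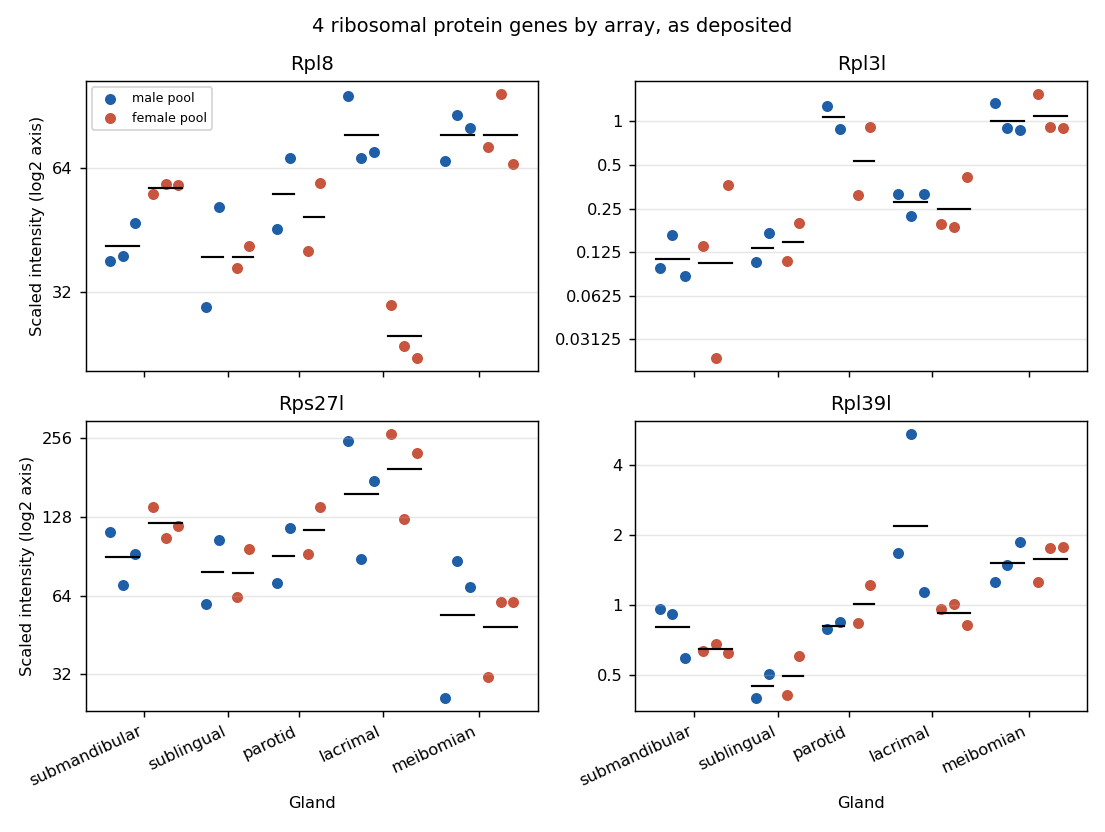
Scaled intensity as deposited (log2 axis) of Rpl8, Rpl3l, Rps27l and Rpl39l on each array by gland, blue for male and red for female pools, with bars at the geometric mean of each group. Rpl8 lies at 67.5 to 95.5 in male lacrimal pools against 22.2 to 29.8 in female pools, and Rpl3l lies at 0.868 to 1.54 in the meibomian gland.

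Most other members leaned the opposite way in the lacrimal gland, without passing the test. The male minus female difference was negative for 51 of the 59 members as deposited. Its median was -0.25 (all probes -0.03) as deposited and -0.31 after quantile scaling. These differences come from the same 6 arrays and are not independent, and 4 of them changed sign with the scaling. Rpl39l, at 1.23 ± 0.38, had an adjusted p of 0.07112, and 0.58 remained without male pool B. As deposited 7 members did not overlap between the sexes, 3 higher and 4 lower in males (12.9% of all probes), and after quantile scaling 26, of which 2 were higher and 24 lower (15.6% of all probes). With the replicate block 4 members passed, where 13.5% of all probes were called, 6.21% higher and 7.31% lower: Rpl8 and Rpl39l (adjusted p = 0.01827) higher in males, and Rpl26 (adjusted p = 0.01029) and Rpl27a (adjusted p = 0.0345) lower. Rpl26 gave 21.8, 13.5 and 5.79 in male pools A, B and C and 38.5, 30.4 and 14.02 in female pools, lower in the male of each letter though the groups overlapped.

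In the submandibular gland no member passed in limma (2.61% of all probes called), and 3 members had an unadjusted p under 0.05. Of the 59 differences 57 were negative, with a median of -0.47 (all probes -0.09). They come from the same 6 arrays and are not independent, and 8 of them changed sign with quantile scaling. For 24 members every male pool was below every female pool, where 18.9% of all probes did not overlap. With the replicate block 9 members passed, all lower in males, where 7.29% of all probes were called, 4.1% higher and 3.19% lower: Rpl6, Rpl7, Rpl13, Rpl13a, Rpl23, Rpl31, Rpl35, Rplp0 and Rps3. Rpl13a gave 23.8, 16.5 and 27.1 in male pools A, B and C against 38.2, 35.9 and 44.7 in female pools, a difference of -0.84 (adjusted p = 0.2225, and 0.01353 with the replicate block). Rpl31, another large-subunit protein, gave 67.9, 43.1 and 54.9 against 112.9, 82.0 and 76.6, a difference of -0.71 (adjusted p = 0.3956, and 0.01568 with the block).

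Array brightness again ran with these values. The array maxima were 280 to 356 in male and 389 to 510 in female submandibular pools, and after quantile scaling the median difference was -0.23, 12 members did not overlap (19.2% of all probes), and no member passed (2.86% of all probes called) without the block and 2 with it (6.26% of all probes called). The summed muscle probes were 18.1 to 24.4 in male and 2.47 to 4.33 in female pools. The part of either in the difference was not tested.

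In the sublingual, parotid and meibomian glands no member passed (0.208%, 0.0244% and 0.0366% of all probes called), and none had an unadjusted p under 0.05. The medians were 0.04, -0.08 and 0.05. Quantile scaling likewise gave no called member in these glands (0.256%, 0.0244% and 0.0244% of all probes called). As deposited, the members of smallest p were Rpl22l1 and Rps27 (0.73 and 0.47) in the sublingual gland. They were Rpl4 and Rpl3l (-1.19 and 0.999) in the parotid and Rpl4 and Rpl7a (0.41 and 0.16) in the meibomian gland. Rpl22l1 had no value in either sublingual pool A, so its 0.73 sets male pool B (1.657) against female pool B (1.002) alone. Averaged over the 5 glands, no member passed either (1.28% of all probes called; 1 member had an unadjusted p under 0.05), and the median was -0.13. Rpl8 came nearest there, at 0.27 (adjusted p = 0.5722), followed by Rpl26 at -0.37 (adjusted p = 0.7755).

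**Figure D5:**
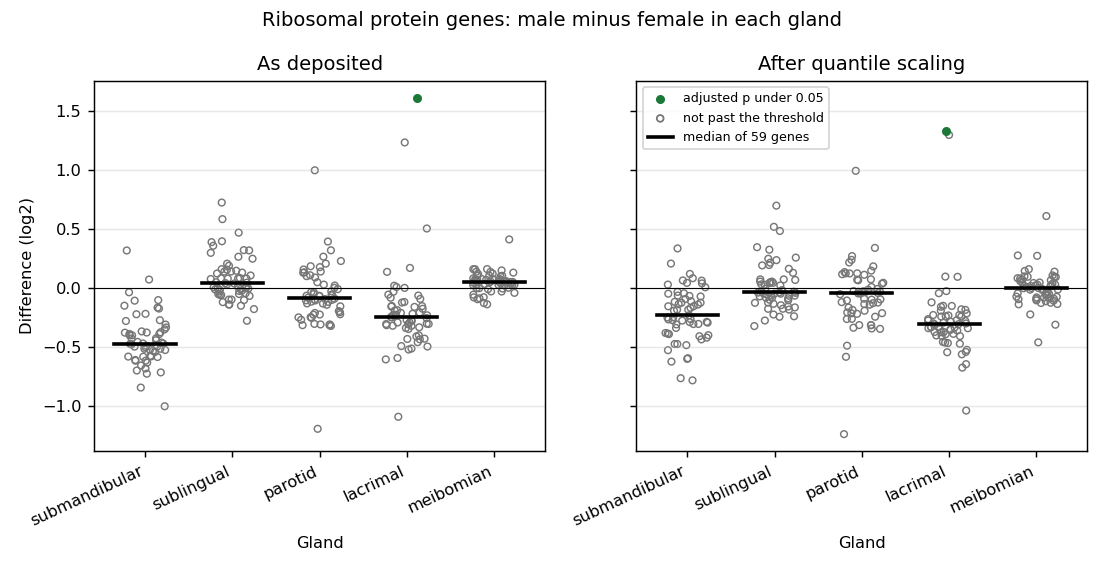
Log2 difference, male minus female, of each ribosomal protein gene in each gland, as deposited (left) and after quantile scaling (right). Filled points passed an adjusted p of 0.05 in limma and open points did not, and black bars are medians. Rpl8 in the lacrimal gland is the single filled point in both panels, at 1.61 and 1.33, above a cloud of open points with medians of -0.25 and -0.31.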

How the data were processed

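The authors deposited 1-colour array intensity values, already scaled so that array medians lay between 0.928 and 0.955, with a span of 0.0403 on the log2 scale; the scanner and the scaling method are not given in the sources used here. Cells holding exactly -1 (0.821% of 273000) were treated as missing. Other values under the 1st percentile of positive values, 0.0234, including 1324 further negative ones, were raised to it, and log2 was taken with no further scaling. Kept were the 8191 of 10500 probes for which all arrays of some group stood at or above the array's 30th percentile. Of all probes 8983 had 1 gene symbol, 1 had several, and the rest were unnamed here. Gene symbols come from the platform annotation, and all 59 members matched RefSeq.

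Group means of 10 groups were fitted with limma 3.58.1 in R 4.3.3 (lmFit and eBayes), adjusted by Benjamini-Hochberg over all probes kept. A probe measured on every array had 16 residual degrees of freedom, and a probe with missing values, such as that of Rpl22l1, had fewer. Figures were drawn with Python 3.11.15 and matplotlib 3.10.9. The scripts were tested on simulated data. The labels call the pools separate pools of animals, so errors are those between pools. Same-lettered male and female pools deviated together over 7501 probes. In the glands with 3 pools per sex all 9 such pairs correlated at 0.441 to 0.816 (other pairs -0.698 to 0.492). Each correlated more highly than every other pair that shared 1 of its pools, so letters were taken as pairs in the replicate block. Alternatives were quantile scaling, the replicate block, other floors, filters and thresholds, missing cells at the floor, array weights, fits within a gland and leaving out each pool. Array set, missing-spot pattern, quantile scaling with the block, and the common ceiling were added after seeing the data.

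Members, gene lists and tests were chosen with earlier results of these data known. Named in full were called members without overlap between glands, those of smallest and largest F-test p, called members or the 2 of smallest p per sex comparison, the stalk genes, Rpsa, Rps6 and the paralogs; Rpl23, Rpl26, the genes of the comparison lists and those listed with both scalings were named after their values were seen. The number of arrays limits the precision.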

Additional observations from a re-analysis of the deposited data

Results flagged for a closer look

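Rpl8 was picked out because its sex difference was not alike in the 5 glands, by a test of the difference itself (limma F test of sex by gland, adjusted p = 0.007815). The male minus female log2 difference was 1.61 ± 0.25 in the lacrimal gland. The values by pool stand above. The call was lost with array weights and in the larger array set alone, and its cause was not tested.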

How the results depend on the processing

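Counts are members passing the threshold of each comparison, out of 59, and the cause of each change was not tested except where the construction gives it. Shares of all probes stand above for the deposited values, quantile scaling and some results of the replicate block and the common ceiling. Other settings have no share here, so their counts show only how the calls moved and are not read against all probes. As deposited, 5, 3, 4, 45 and 32 passed in the submandibular, sublingual, parotid, lacrimal and meibomian glands, 46 in the F test of gland, 1 in that of sex by gland, and 0 and 1 in the male minus female comparison of submandibular and lacrimal glands. Quantile scaling gave 17, 1, 10, 11 and 50 in the glands, with medians of -0.10 in the lacrimal and 0.65 in the meibomian gland. The replicate block gave 3, 1 and 2 in the salivary glands and 9 and 4 between the sexes of submandibular and lacrimal glands; other comparisons did not move by over 1.5 times under it. Quantile scaling with the replicate block gave 10, 1, 2, 5 and 49 in the glands, the same medians, and 2 and 7 between the sexes. With array set as a block, 10 passed in the submandibular gland, 7 in the sublingual gland and 1 between submandibular sexes. With the missing-spot pattern as a block, which no meibomian array shares with a salivary one, 9 passed in both the sublingual and the parotid gland and 6 in meibomian glands, and 1 and 2 between the sexes. In the larger array set alone, 8 passed in the submandibular and 7 in the parotid gland and 0 in the F test of sex by gland, as also with array weights. The common ceiling gave 12 in the lacrimal (median 0.11) and 16 in the meibomian gland and 17 in the F test of gland. A further minimum of 1 on the log2 scale left 1, 1, 2 and 4 in the submandibular, parotid, lacrimal and meibomian glands. A filter at the 50th percentile gave 2 in the parotid gland, and 0 passed between lacrimal sexes where only lacrimal arrays were fitted. Lacrimal differences reversed by quantile scaling, with or without the block, were Rpsa (-0.079), Rplp0 (-0.038), Rplp2 (-0.22) and Rps6 (-0.10), and the missing-spot block turned the meibomian difference of Rpl39l to -0.36.

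When each of the 26 pools was left out in turn, the counts were 3 to 7, 1 to 6, 0 to 5, 38 to 47 and 26 to 33 in the glands in the same order, 36 to 48 in the F test of gland, 1 in every run of that of sex by gland, 1 to 2 between lacrimal sexes and 0 in the other sex comparisons. The parotid count was 0 without male pool A. Leaving out 1 pool ended the sublingual call of Rpl8 in 17 of the 26 runs, the meibomian call of Rplp1 in 16, the parotid call of Rps20 in 6 and the submandibular call of Rpl13a in 3. The medians ran from -0.15 to -0.02, -0.46 to 0.01, -0.40 to -0.01, 0.54 to 0.74 and -0.21 to -0.05 in the glands, and between the sexes from -0.55 to -0.34, -0.40 to 0.54, -0.56 to 0.40, -0.43 to -0.04 and -0.06 to 0.11, and -0.21 to -0.03 in their mean. Signal over background limits Rpl3l and Rps20, which lay below the filter level on most arrays.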
